A study of Homo sapiens with 8 samples.

Results

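Most genes with a ZNF number encode C2H2 zinc finger proteins, and some are pseudogenes. Of the 529 ZNF-numbered genes in the deposited table of 26475 genes, 183 reached a mean CPM of 10 in the DMSO libraries. They are described here, with CPM as the count per 1000000 counts of the library. These 183 genes were chosen by symbol and by their level in the 2 DMSO libraries, so their DMSO level is part of the choice and is not a result. Of the other 346 ZNF-numbered genes, 84 had no count in any library. The study treated MOLM-13, an established human acute myeloid leukemia cell line with a KMT2A-AF9 fusion, and sequenced bulk RNA. It asked what inhibition of Menin and KAT6A together does to the transcriptome beyond either inhibitor alone. There were 2 libraries in each of 4 groups, all from the MOLM-13 line with no further change of genotype. The groups were VTP50469 together with WM1119 (the combination), VTP50469 alone, WM1119 alone (written WM119 in the sample labels) and the vehicle DMSO. VTP50469 keeps Menin from binding KMT2A. WM1119 is an inhibitor of KAT6A, a histone acetyltransferase. The sources used here give no dose or duration for these libraries and do not say if replicates were separate cultures, so the p-values measure only the spread between these libraries, which may be technical.

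A C2H2 finger is a short module folded around a zinc ion by a pair of cysteines and a pair of histidines, and proteins with a row of such fingers read a DNA sequence, with neighboring fingers joined by a conserved linker. Many of the human genes carry a KRAB box at the N-terminus, which recruits TRIM28 and through it SETDB1, HP1 proteins and histone deacetylases, so that the bound site, often a transposable element, is silenced. KRAB zinc finger genes lie in clusters that arose by tandem duplication, above all on chromosome 19. Zinc finger proteins without a KRAB box have many other tasks, among them activation of promoters, splicing, ribosome assembly and work inside chromatin complexes.

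By the GENCODE release 44 annotation, 84 of the 183 genes encoded a KRAB box, 96 were coding without one and 3 (ZNF252P, ZNF271P and ZNF321P) were pseudogenes. On chromosome 19 lay 61 of them, 41 with a KRAB box. The canonical proteins held a median of 11 fingers in the KRAB genes, against 6 in the coding genes without KRAB. Their canonical transcripts were long, with a median of 4144 bases, against 3240 bases over the 12401 genes tested. All 183 passed the filter on low counts. The median level in DMSO was 23.8 CPM, with 65 genes under 20 CPM and 11 at 100 CPM or more.

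To show the module these genes share, and why their reads can be hard to place, 3 finger units are printed from the hg38 genome. The first is from ZNF584, the 1 KRAB gene called between the combination and DMSO, with the linker to the next finger in capitals (chr19:58417164-58417247, plus strand, coding exon). The other 2 are from the neighboring genes ZNF552 (chr19:57808121-57808204, minus strand, coding exon) and ZNF587B (chr19:57842412-57842495, plus strand, coding exon), with the 5 bases that differ in capitals.
ZNF584: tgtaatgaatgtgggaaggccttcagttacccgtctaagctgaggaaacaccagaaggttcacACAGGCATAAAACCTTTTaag
ZNF552: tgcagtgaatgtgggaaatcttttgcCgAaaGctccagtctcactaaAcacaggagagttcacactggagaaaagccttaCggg
ZNF587B: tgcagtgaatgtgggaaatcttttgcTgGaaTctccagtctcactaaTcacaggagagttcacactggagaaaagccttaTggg
The ZNF552 and ZNF587B units of 84 bases were 94.0% identical. A search for identical units took only those with 1 exact form of the linker, which the ZNF584 unit above does not have. It found 445 such units in 91 of the genes (those of 1 other chromosome were not searched). No 2 of these 445 were the same between genes, and fingers of other forms were not compared. Stretches of 150 bases shared exactly with a transcript of another annotated gene entry were found in 36 of the 183 genes, and in 13 they covered over 10% of the transcript. In 67 genes at least 1 library had a value that was not a whole number, and in 11 all 8 had; ZNF552 and ZNF587B were among these. Their levels are uncertain where the authors' counting split reads between copies. ZNF552 had 16.2 and 9.57 CPM in the combination, against 13.5 and 15.2 CPM in DMSO. ZNF587B had 25.98 and 25.3 CPM in the combination, against 21.4 and 25.9 CPM in DMSO. In both pairs the groups overlapped. Of the 183 genes, 14 overlapped an exon of a gene on the other strand, and since the strand setting of the counting was not given, reads of such partners cannot be told apart.

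Library totals ran between 18092906 and 23634468 counts, so that 10 CPM stood for 181 to 236 counts. All 13 myeloid markers listed for MOLM-13 (CD33, FLT3, MPO, SPI1 and others) were tested, and their summed level was 9069 and 10147 CPM in the combination, 3535 and 4049 CPM with VTP50469, 2881 and 3045 CPM with WM1119 and 1913 and 1950 CPM in DMSO. Lymphoid markers summed to 2.58 to 5.25 CPM over the 8 libraries, erythroid and megakaryocyte markers to 0.0 to 1.19 CPM, and epithelial, stromal and kidney markers to 1.27 to 4.32 CPM. Among these, CD3E, HBA1, HBB, PF4, PPBP, EPCAM, KRT19, COL1A2, COL3A1 and PAX2 had no count. Of these 13 markers, edgeR called 7 higher and 3 lower in the combination against DMSO, so the sum does not stand for each of them. The part of the markers in the results on zinc finger genes was not tested. In bulk RNA, fewer cells of a type and less RNA of a gene per cell cannot be told apart. Combination replicate 2 stood apart from the other libraries, with 12972 genes detected against 14142 to 14544, and the main counts and medians are therefore also given without it or with each replicate apart.

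The zinc finger genes stood lower in the combination than in the other groups, by a small amount in replicate 1 and by a large amount in replicate 2. Together they held 5952 and 4342 CPM in combination replicates 1 and 2, 6478 and 6070 CPM with VTP50469, 5848 and 6687 CPM with WM1119, and 6651 and 6584 CPM in DMSO. Only combination replicate 2 lay far below all the rest, since WM1119 replicate 1 was below combination replicate 1. The 84 KRAB genes summed to 1721 and 1116 CPM in the combination, against 1865 and 1890 CPM in DMSO. The 96 coding genes without KRAB summed to 4165 and 3175 CPM in the combination, against 4726 and 4631 CPM in DMSO. In combination replicate 2, 49 of the 183 genes were under 10 CPM, against 11 in combination replicate 1. There were 8 and 8 such genes with VTP50469 and 13 and 2 with WM1119. The DMSO libraries had 3 and 2, but the rule that chose the genes by DMSO level kept these counts low. The same count was not made over all expressed genes.

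For each library, the difference of log2(CPM + 1) from the mean of the 2 DMSO libraries was taken per gene, which understates changes of low genes. The median over the 183 genes was -0.13 in combination replicate 1 and -0.65 in combination replicate 2. With VTP50469 it was -0.0062 and -0.09, and with WM1119 it was -0.15 and 0.0054. For the 8576 genes of the whole table at 10 CPM or more in DMSO the medians were -0.03 and -0.30 in the combination, -0.0039 and -0.03 with VTP50469, and -0.04 and 0.02 with WM1119. The zinc finger genes thus lay below the other expressed genes by more in combination replicate 2 than in the remaining libraries, and no test was made of a difference between medians. Combination replicate 2 had 148 of the 183 below both DMSO libraries and 59 more than 2-fold lower, against 112 and 3 in combination replicate 1. Of the 8576 genes, 5259 were below both DMSO libraries and 1879 more than 2-fold lower in combination replicate 2. In combination replicate 1 these counts over the 8576 genes were 4186 and 141. The KRAB genes had a median of -0.08 and -0.73 in the combination, and the coding genes without KRAB -0.17 and -0.60, so the order of these classes was opposite in the 2 replicates. The 40 expressed genes with the related names ZFP, ZSCAN, ZKSCAN or ZBTB had medians of -0.19 and -1.02 in the combination.

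**Figure D1:**
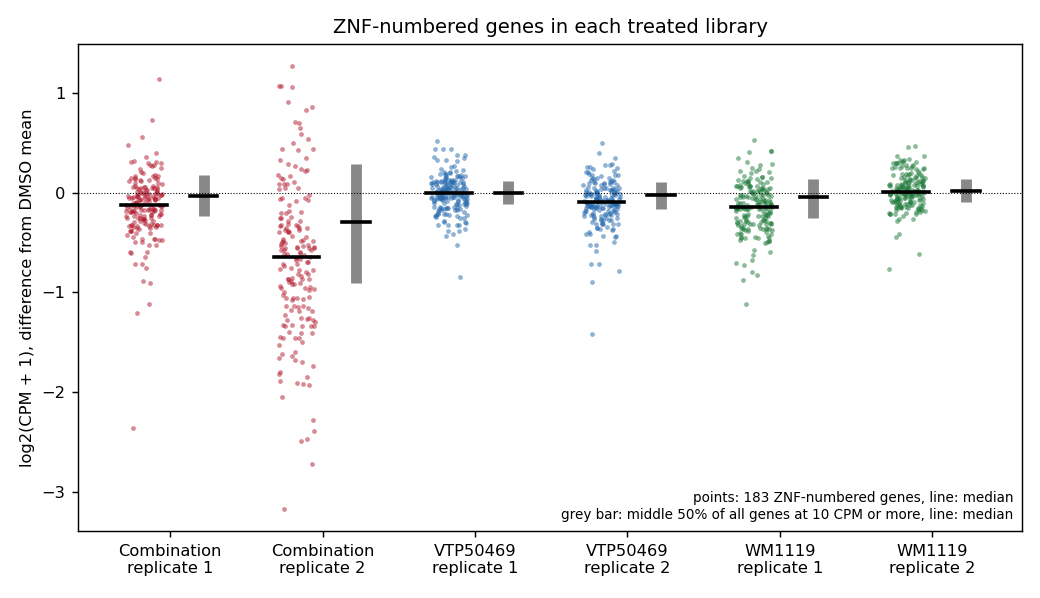
Difference of log2(CPM + 1) from the DMSO mean (y axis) for the 183 ZNF-numbered genes in each of the 6 treated libraries (points, black line at the median), beside the middle 50% and median of all genes at 10 CPM or more in DMSO (grey bar and black line). The median of the 183 genes is at -0.65 in combination replicate 2 and between -0.15 and 0.0054 in the other 5 libraries.

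Much of the spread followed transcript length, and it did so differently in the 2 replicates of a treatment. Across the 183 genes the Spearman correlation of the log2 difference with the length of the canonical transcript was -0.16 in combination replicate 1 and -0.62 in combination replicate 2, -0.05 and -0.44 with VTP50469, and -0.56 and 0.22 with WM1119. Genes of 1 library are not independent replicates, so no p is given. The 12401 tested genes, of which 11416 had a length, gave -0.14 and -0.56 in the combination, 0.0023 and -0.29 with VTP50469, and -0.52 and 0.09 with WM1119. In combination replicate 2 the median of the zinc finger genes was 0.47 under 2000 bases (n = 16), -0.19 from 2000 to 3000 bases (n = 34), -0.55 from 3000 to 4000 bases (n = 38), -1.04 from 4000 to 6000 bases (n = 52) and -1.08 above 6000 bases (n = 43). All genes at 10 CPM or more gave 0.45, -0.06, -0.41, -0.75 and -1.09 in the same classes and library. Zinc finger genes minus all genes came to -0.29 to 0.02 over the 5 length classes in combination replicate 2, and to -0.10 to -0.0056 in combination replicate 1, where all 5 classes were lower. The GC content of the transcripts moved with the difference too, with a Spearman correlation of 0.48 in combination replicate 2 and 0.01 in combination replicate 1. Median changes with offsets for transcript length and GC content are given beside each comparison with the combination.

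**Figure D2:**
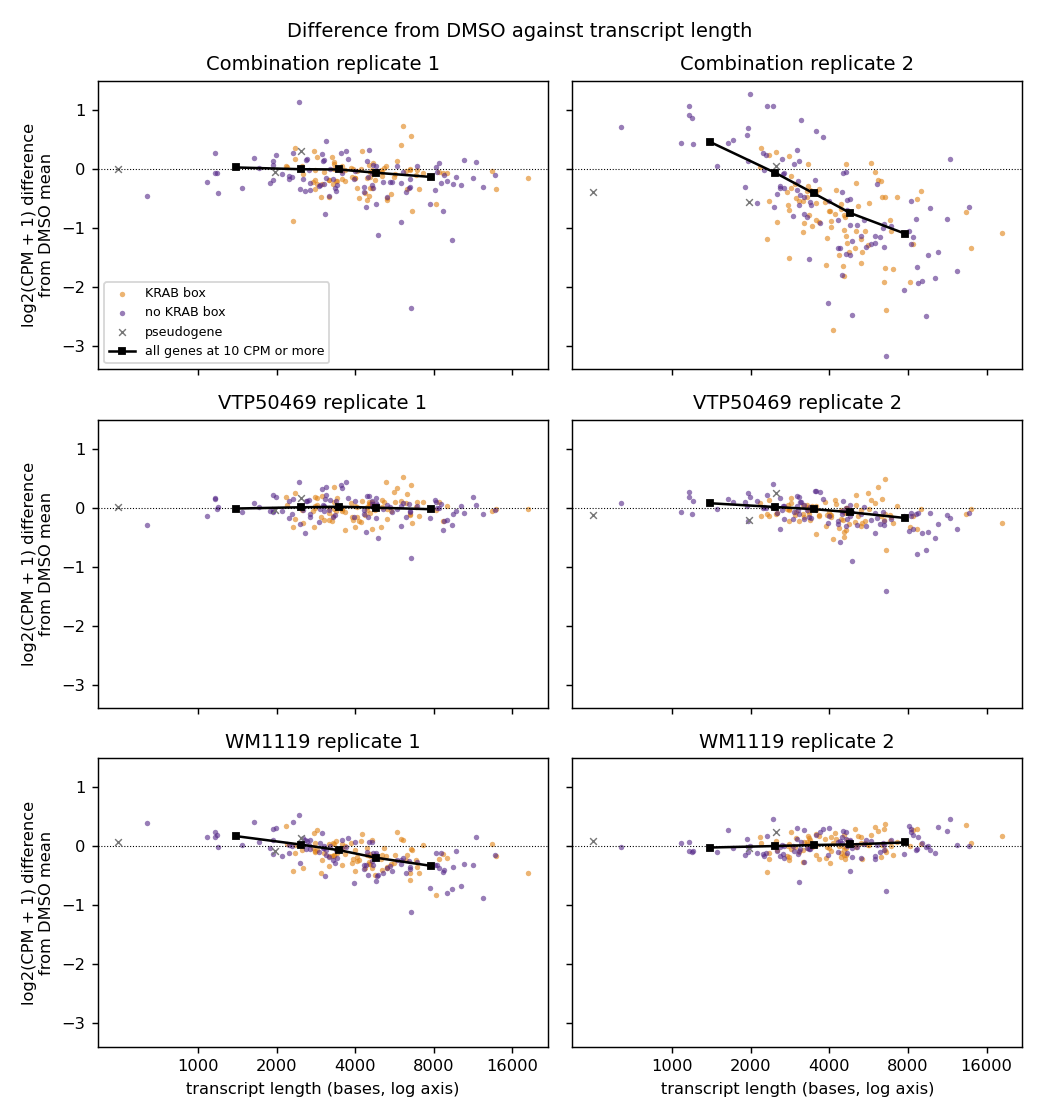
Difference of log2(CPM + 1) from the DMSO mean (y axis) against transcript length in bases (x axis, log scale) for the 183 ZNF-numbered genes in each treated library, colored by KRAB box, with the medians of all genes at 10 CPM or more in 5 length classes as a black line. The points fall with length in combination replicate 2 (Spearman -0.62) and WM1119 replicate 1 (-0.56) and are nearly level in combination replicate 1 (-0.16).

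The relation with length was read apart for genes with and without KRAB, as a description with no test of the difference. In combination replicate 2 the Spearman correlation with length was -0.36 over the 84 KRAB genes and -0.75 over the 96 coding genes without KRAB. In WM1119 replicate 2 the order of size was opposite, with 0.30 over the KRAB genes and 0.20 over those without, and in VTP50469 replicate 1 the correlations were 0.14 and -0.15. No KRAB gene had a transcript under 2000 bases, against 14 genes without KRAB, whose median in combination replicate 2 was 0.54. Between 4000 and 6000 bases, the medians in combination replicate 2 were -1.003 for 30 KRAB genes and -1.14 for 22 genes without KRAB. In combination replicate 1 they were -0.13 and -0.23 in that order.

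The 2 combination libraries differed from each other in these genes more than the libraries of any other group did. A gap of more than 2-fold between the replicates was found for 45 of the 183 genes (24.6%) in the combination and for 0 in each of the VTP50469, WM1119 and DMSO pairs. Over the 12401 tested genes the shares were 16.8%, 0.218%, 0.758% and 0.306% in the same order of groups. In 43 of the 45, replicate 2 was the lower library. The median gap on the log2 scale was 0.64 in the combination, 0.13 with VTP50469, 0.19 with WM1119 and 0.09 in DMSO. The widest gaps were in ZNF888, a KRAB gene of the chromosome 19 cluster, with 18.8 and 3.24 CPM in combination replicates 1 and 2 against 28.2 and 25.8 CPM in DMSO, then in ZNF623 (24.2 and 4.86 CPM, against 28.7 and 26.3 CPM in DMSO) and the KRAB gene ZNF791 (11.3 and 2.27 CPM, against 13.1 and 9.68 CPM in DMSO). For ZNF791 the first combination library lay between the DMSO libraries and the second far below them. In 23 genes combination replicate 1 lay above and replicate 2 below both DMSO libraries, and in 9 genes the reverse held. These 2 counts were not made over all tested genes, so they are not read as a trait of the 183 genes.

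**Figure D3:**
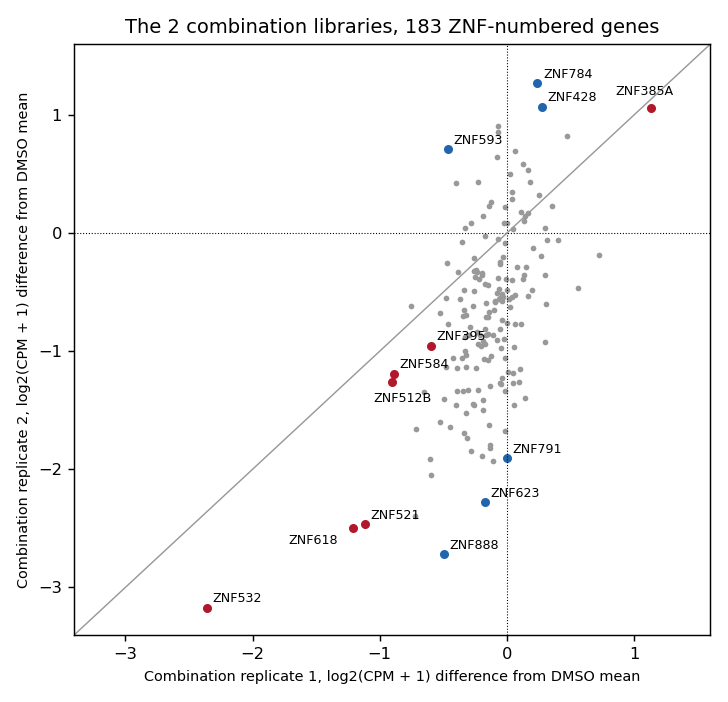
Difference of log2(CPM + 1) from the DMSO mean in combination replicate 1 (x axis) and combination replicate 2 (y axis), 1 point for each of the 183 ZNF-numbered genes, with the diagonal of equal values. Red points are the 7 genes called between the combination and DMSO and blue points other named genes; most points lie under the diagonal, with ZNF888, ZNF623 and ZNF791 farthest from it.

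Comparisons among the treated groups did not contrast the DMSO libraries that chose the genes. Those libraries still entered the count filter, the TMM scaling and the shared estimate of spread. Against VTP50469 alone, the question was what WM1119 added. By edgeR, 0 of the 183 genes were called at an adjusted p (Benjamini-Hochberg over all tested genes) under 0.05, while 0.234% of all tested genes were called higher and 0.161% lower. At an unadjusted p under 0.05 there were 1 higher and 24 lower, where 17.9% of all genes passed in either direction, and DESeq2 called 1 higher and 5 lower, where it called 5.07% of all genes. Both combination libraries lay below both VTP50469 libraries in CPM for 74 genes (40.4%), where 26.8% of all tested genes did so, and above them for 11 genes (6.01%), where 19.6% of all did. After TMM scaling these counts were 67 and 12, where 24.1% and 22.7% of all genes did so. The median fitted log2 change was -0.24 over the 183 genes and 0.0020 over all genes. Without combination replicate 2 it was -0.07, with offsets for transcript length and GC content -0.13, and without combination replicate 1 -0.44. Without combination replicate 1, which leaves the group with its second library, 117 of the 183 genes (63.9%) were called by edgeR, where 56.6% of all tested genes were, and without combination replicate 2 it was 2 (1.09%), where 2.56% of all were.

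Several genes were named in this comparison for the size of their change among those without overlap, and none passed the edgeR test. ZNF532, which works with ZNF592, ZNF687 and ZMYND8 in a chromatin complex, had 2.95 and 1.24 CPM in the combination (68 and 23 counts), against 10.3 and 6.59 CPM with VTP50469 (log2 -1.90, SE 0.36, edgeR adjusted p 0.0909, DESeq2 adjusted p 0.000159). ZNF618, a partner of UHRF1, had 23.7 and 9.13 CPM in the combination, against 45.6 and 33.7 CPM with VTP50469 (log2 -1.20, SE 0.39, edgeR adjusted p 0.210). In both genes the groups stood apart, with the second combination library the lowest of all. ZNF507 had 40.8 and 14.2 CPM in the combination, against 54.8 and 56.3 CPM with VTP50469, and the KRAB gene ZNF556 had 6.51 and 1.35 CPM, against 9.34 and 6.54 CPM with VTP50469. For these 2 genes the gap between the combination libraries was wider than the gap between the groups. The same held on the log2 scale for ZNF618, with a gap of 1.28 between its combination libraries.

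On the higher side, ZNF385A, an RNA-binding protein known in mouse as Hzf and as a partner of p53, had 105 and 100.03 CPM in the combination, against 64.7 and 62.7 CPM with VTP50469 (log2 0.80, SE 0.14, edgeR adjusted p 0.0683, DESeq2 adjusted p 0.000101). Its replicates lay close together in every group. ZNF784 had 14.8 and 31.1 CPM in the combination, against 14.1 and 14.02 CPM with VTP50469, and ZNF414 had 16.5 and 29.5 CPM, against 15.1 and 15.8 CPM with VTP50469. ZNF428 had 45.2 and 79.0 CPM in the combination, against 41.1 and 45.1 CPM with VTP50469, and shares its locus with SRRM5 on the other strand. These 3 genes have transcripts of 1987, 2307 and 1162 bases, and their excess lay almost wholly in combination replicate 2.

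Against WM1119 alone, where the question was what VTP50469 added, 1 of the 183 genes was called lower and 0 higher by edgeR, while 0.411% of all genes were called lower and 1.02% higher. At an unadjusted p under 0.05 there were 3 higher and 17 lower, where 16.7% of all genes passed in either direction, and DESeq2 called 1 higher and 4 lower, where it called 5.32% of all genes. Both combination libraries lay below both WM1119 libraries for 66 genes (36.1%), where 22.5% of all genes did so, and above them for 6 (3.28%), where 16.8% of all did. The median fitted log2 change was -0.25 over the 183 genes and -0.0060 over all genes, and it was -0.06 without combination replicate 2, -0.13 with the length and GC offsets and -0.41 without combination replicate 1. Without combination replicate 1 edgeR called 114 of the 183 genes (62.3%), where it called 54.2% of all, without combination replicate 2 it called 4 (2.19%), where it called 4.14% of all, and without any 1 of the other 6 libraries it called 0. ZNF532 was the gene called, with 2.95 and 1.24 CPM in the combination against 8.34 and 10.9 CPM with WM1119 (log2 -2.10, SE 0.36, edgeR adjusted p 0.0488). That call was lost without any 1 library of VTP50469, WM1119 or DMSO (highest edgeR adjusted p 0.342), with the log2 change between -2.27 and -1.94 in those fits. It held without combination replicate 1 (log2 -2.74) and without combination replicate 2 (log2 -1.69).

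Other genes named in this comparison did not pass the edgeR test, and DESeq2 called 3 of them, ZNF521, ZNF618 and ZNF385A. ZNF521, a transcriptional cofactor of early hematopoietic cells, had 62.7 and 23.99 CPM in the combination, against 97.7 and 120 CPM with WM1119 (log2 -1.27, SE 0.35, edgeR adjusted p 0.152, DESeq2 adjusted p 0.0128). ZNF618 had 23.7 and 9.13 CPM in the combination, against 33.5 and 55.6 CPM with WM1119 (log2 -1.37, SE 0.39, edgeR adjusted p 0.166, DESeq2 adjusted p 0.0178), and ZNF556 had 6.51 and 1.35 CPM, against 10.8 and 10.6 CPM with WM1119 (log2 -1.38, SE 0.54, edgeR adjusted p 0.276). In these 3 genes both combination libraries lay below both WM1119 libraries. ZNF385A had 105 and 100.03 CPM in the combination, against 68.8 and 65.5 CPM with WM1119 (log2 0.72, SE 0.14, edgeR adjusted p 0.0653, DESeq2 adjusted p 0.000541). ZNF438 had 18.01 and 23.2 CPM in the combination, against 12.02 and 13.3 CPM with WM1119, ZNF428 had 45.2 and 79.0 CPM, against 44.1 and 39.3 CPM with WM1119, and the KRAB gene ZNF140, which overlaps ZNF891 on the other strand, had 15.7 and 14.3 CPM, against 12.1 and 10.98 CPM with WM1119.

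Between the single inhibitors, VTP50469 against WM1119, 0 of the 183 genes were called by edgeR and 0 by DESeq2, where 0.0323% and 0.965% of all genes were called. At an unadjusted p under 0.05 there were 2 genes higher with VTP50469 and 0 lower, where 5.39% of all genes passed. The fitted log2 changes of the 183 genes ran from -0.44 to 0.63 with a median of 0.0076. The interaction term (combination minus VTP50469 minus WM1119 plus DMSO, in log2, so that DMSO enters it) called 0 of the 183 genes by edgeR and 0 by DESeq2, and 0 at an unadjusted p under 0.05. Over all genes the shares were 0.0%, 0.0305% and 2.2% in that order. Without combination replicate 1, edgeR called 70 of the 183 genes (38.3%) in the interaction term, where it called 30.9% of all genes, and without combination replicate 2 it called 0, where it called 0.0% of all.

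The comparisons with DMSO share their libraries with the rule that chose the genes, so counts, changes and adjusted p-values against DMSO are given as a description from which nothing is read. In the combination, edgeR called 1 of the 183 genes higher, where 5.85% of all tested genes were called higher, and 6 lower, where 3.44% were. DESeq2 called 2 higher and 19 lower, where it called 17.1% of all genes. Both combination libraries lay below both DMSO libraries for 102 genes (55.7%), where 34.5% of all genes did so, and above them for 15 (8.20%), where 24.8% of all did. The median fitted log2 change was -0.29 over the 183 genes and 0.01 over all genes, and it was -0.12 without combination replicate 2, -0.17 with the length and GC offsets and -0.47 without combination replicate 1. EdgeR called 122 of the 183 genes (66.7%) without combination replicate 1 and 13 (7.10%) without combination replicate 2, where it called 60.8% and 14.5% of all genes. It called 4 without VTP50469 replicate 1 or 2 (3.07% and 3.06% of all genes), 3 without WM1119 replicate 1 or 2 (3.48% and 3.35% of all) and 0 without DMSO replicate 1 or 2 (0.537% and 0.615% of all). With VTP50469 alone edgeR called 0 (0.169% of all genes), with 4 at an unadjusted p under 0.05 (6.75% of all), and DESeq2 called 0 (1.58% of all), while edgeR called 2 without combination replicate 1 or combination replicate 2 (3.26% and 3.3% of all). With WM1119 alone edgeR called 0 (0.0% of all genes), with 5 at an unadjusted p under 0.05 (4.94% of all), and DESeq2 called 0 (0.651% of all).

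ZNF385A was the gene called higher. It had 105 and 100.03 CPM in the combination, 64.7 and 62.7 CPM with VTP50469 and 68.8 and 65.5 CPM with WM1119, against 50.1 and 44.9 CPM in DMSO (combination against DMSO log2 1.23, SE 0.14, edgeR adjusted p 0.00499). All 6 treated libraries stood above both DMSO libraries, and the combination libraries stood above all others. Its transcript has 2440 bases and the change was 1.16 without combination replicate 2, 1.29 without combination replicate 1 and 0.93 with the length and GC offsets. The gene lies at chr12:54369133-54391298 on the minus strand of hg38.

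ZNF532 had the lowest change. It had 2.95 and 1.24 CPM in the combination, 10.3 and 6.59 CPM with VTP50469 and 8.34 and 10.9 CPM with WM1119, against 19.4 and 19.1 CPM in DMSO (combination against DMSO log2 -3.09, SE 0.37, edgeR adjusted p 0.00623). Each treated library was below both DMSO libraries, the single inhibitors overlapped each other, and the combination lay below them all. ZNF512B, a repressor of TGF-beta signaling that binds the NuRD complex, also had its lowest levels in the combination and its highest in DMSO, at 12.4 and 9.46 CPM in the combination, 19.2 and 17.5 CPM with VTP50469 and 19.4 and 20.5 CPM with WM1119, against 23.3 and 24.7 CPM in DMSO (combination against DMSO log2 -1.03, SE 0.14, edgeR adjusted p 0.00975). ZNF512B overlaps the antisense transcript UCKL1-AS1. Without combination replicate 2 the changes were -2.69 for ZNF532 and -0.94 for ZNF512B.

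ZNF521 had 62.7 and 23.99 CPM in the combination, 95.2 and 73.2 CPM with VTP50469 and 97.7 and 120 CPM with WM1119, against 137 and 138 CPM in DMSO (combination against DMSO log2 -1.59, SE 0.35, edgeR adjusted p 0.0395). ZNF618 had 23.7 and 9.13 CPM in the combination, 45.6 and 33.7 CPM with VTP50469 and 33.5 and 55.6 CPM with WM1119, against 59.2 and 53.2 CPM in DMSO (combination against DMSO log2 -1.70, SE 0.40, edgeR adjusted p 0.0462). In both genes the second combination library was more than 2-fold below the first, and the WM1119 libraries were far apart for ZNF618, where 1 of them overlapped DMSO. Without combination replicate 2 the changes were -1.11 for ZNF521 and -1.23 for ZNF618.

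ZNF584, the KRAB gene whose finger is printed above, had 12.2 and 9.73 CPM in the combination, 18.5 and 21.7 CPM with VTP50469 and 17.3 and 17.01 CPM with WM1119, against 21.7 and 25.4 CPM in DMSO (combination against DMSO log2 -0.99, SE 0.17, edgeR adjusted p 0.0177). ZNF395, also known as papillomavirus binding factor, had 25.2 and 19.5 CPM in the combination, 40.9 and 34.9 CPM with VTP50469 and 25.3 and 28.7 CPM with WM1119, against 40.2 and 37.1 CPM in DMSO (combination against DMSO log2 -0.68, SE 0.15, edgeR adjusted p 0.0360). For ZNF395 the VTP50469 libraries lay around those of DMSO, while the WM1119 libraries were close to the combination. ZNF584 has a transcript of 2308 bases, shorter than most of the 183, and with the length and GC offsets its change was -1.20.

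All 7 of these calls were lost without DMSO replicate 1 or DMSO replicate 2, with edgeR adjusted p up to 0.262 over all 8 such fits, and all 7 held without combination replicate 1 or combination replicate 2. The calls on ZNF521, ZNF618 and ZNF395 were also lost without any 1 library of VTP50469 or WM1119, and that on ZNF584 without WM1119 replicate 1 or 2. Named for their size but not called by edgeR against DMSO were ZNF556 (log2 -1.46, SE 0.54), ZNF784 (1.04, SE 0.40), ZNF414 (0.91, SE 0.34) and ZNF428 (0.89, SE 0.31), with edgeR adjusted p between 0.120 and 0.139. DESeq2 called ZNF556 of these (adjusted p 0.0446).

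**Figure D4:**
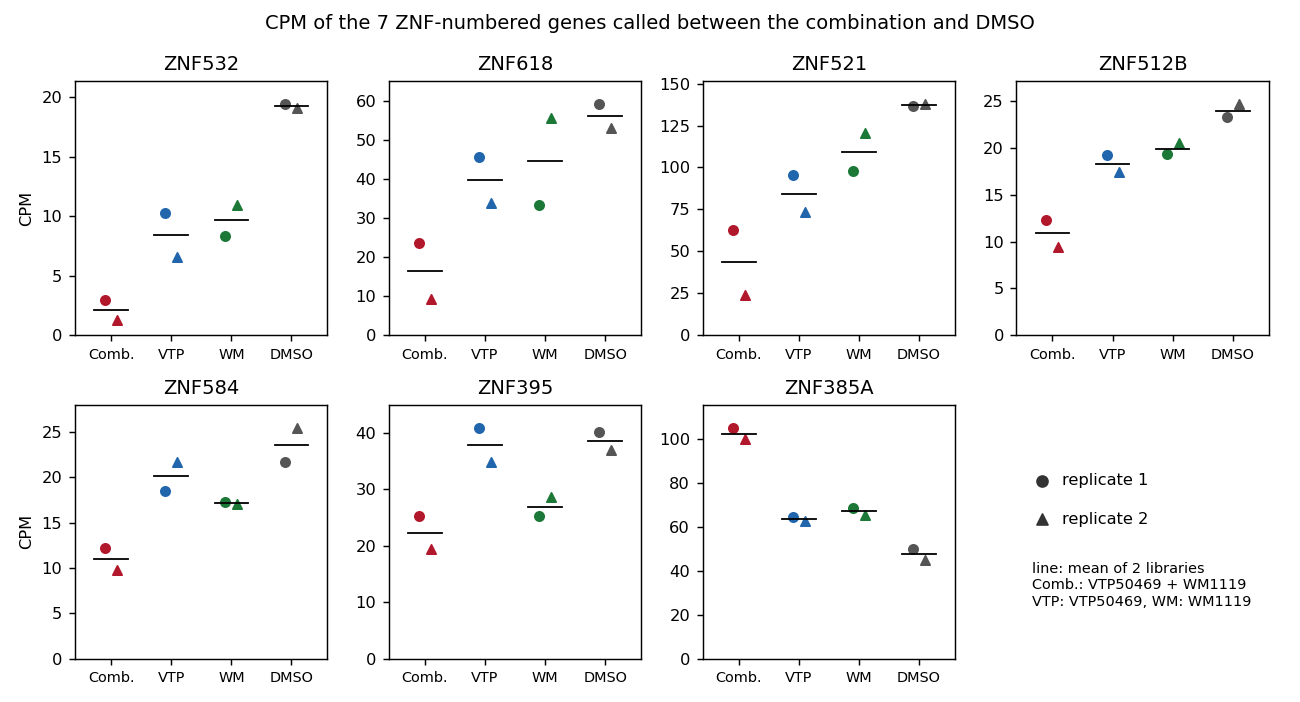
CPM (y axis, from 0) of the 7 ZNF-numbered genes called between the combination and DMSO, in the 8 libraries, with circles for replicate 1, triangles for replicate 2 and a line at the mean of a group. ZNF385A is at 100.03 to 105 CPM in the combination against 44.9 to 50.1 CPM in DMSO, and the other 6 genes have both combination libraries below both DMSO libraries.

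The 6 zinc finger genes with the highest level in DMSO all encode proteins without a KRAB box. ZNF207, a BUB3-binding protein of the mitotic spindle, had 264 and 181 CPM in the combination, 276 and 268 CPM with VTP50469 and 255 and 284 CPM with WM1119, against 291 and 278 CPM in DMSO. ZNF146, a protein made almost only of fingers, had 139 and 59.7 CPM in the combination, 160 and 156 CPM with VTP50469 and 143 and 167 CPM with WM1119, against 176 and 172 CPM in DMSO. The RNA-binding protein ZNF106 had 164 and 55.7 CPM in the combination, 140 and 123 CPM with VTP50469 and 121 and 187 CPM with WM1119, against 153 and 145 CPM in DMSO. In ZNF207 and ZNF146 both combination libraries were below DMSO, whereas in ZNF106 the first was above and the second below.

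ZNF516, known from mouse as an activator of brown fat genes, had 92.6 and 47.6 CPM in the combination, 117 and 88.1 CPM with VTP50469 and 113 and 147 CPM with WM1119, against 150 and 155 CPM in DMSO (combination against DMSO log2 -1.04, SE 0.26, edgeR adjusted p 0.0566). It lay just outside the edgeR threshold and inside that of DESeq2 (adjusted p 0.00424). ZNF706, a very small protein with 1 finger and a transcript of 2672 bases, had 111 and 135 CPM in the combination, 128 and 145 CPM with VTP50469 and 139 and 124 CPM with WM1119, against 139 and 147 CPM in DMSO. ZNF521, described above, completed the 6. Apart from ZNF521, none of these 6 was called by edgeR in any comparison.

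Genes near the threshold of 10 CPM were set apart by very little. Just inside were ZNF839 (9.78 and 10.5 CPM in the DMSO libraries), ZNF251 (10.0 and 10.2 CPM) and ZNF611 (10.4 and 9.68 CPM). Just outside were ZNF136 (9.89 and 9.97 CPM in the DMSO libraries), ZNF230 (10.0 and 9.83 CPM) and ZNF23 (9.45 and 10.1 CPM).

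Genes of the ribosome and of translation stood on both sides of DMSO in the combination. This list held 4 members. In the fit of all 8 libraries without offsets, edgeR called none in any of the 6 comparisons between groups. In the combination against DMSO it called 5.85% of all genes higher and 3.44% lower. ZNF598, the ubiquitin ligase that senses collided ribosomes, had 90.5 and 79.5 CPM in the combination, 126 and 119 CPM with VTP50469 and 112 and 114 CPM with WM1119, against 118 and 116 CPM in DMSO (combination against DMSO log2 -0.35, SE 0.11, edgeR adjusted p 0.101). Both combination libraries lay below all 6 others. DESeq2 called ZNF598 against DMSO (DESeq2 adjusted p 0.0435), and so did edgeR with the length and GC offsets (log2 -0.51, edgeR adjusted p 0.00977). ZNF622, a maturation factor of the large ribosomal subunit, had 77.5 and 108 CPM in the combination, against 74.6 and 78.0 CPM in DMSO, and ZNF593, the human relative of yeast Bud20 in the same process, had 27.7 and 63.8 CPM, against 36.2 and 41.3 CPM in DMSO. ZNF593 has a transcript of 638 bases, and its 2 combination libraries fell on opposite sides of DMSO. The median fitted log2 change of the 4 genes in the combination against DMSO was 0.03, against -0.29 over the 183 genes and 0.01 over all genes. By library, the median difference of log2(CPM + 1) of the 4 genes was -0.33 in combination replicate 1 and -0.03 in combination replicate 2. The fitted median turned to -0.33 without combination replicate 2 and to -0.38 with the length and GC offsets, and it was 0.19 without combination replicate 1.

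Of 6 members that act in RNA processing or mitosis, none was called by edgeR in any of the 6 comparisons, where 5.85% of all genes were called higher and 3.44% lower in the combination against DMSO. Besides ZNF207 and ZNF106, ZNF638, which silences unintegrated retroviral DNA and binds RNA, had 89.0 and 52.1 CPM in the combination, against 102 and 99.7 CPM in DMSO. The median fitted log2 change in the combination against DMSO was -0.33, and it was -0.15 without combination replicate 2, -0.60 without combination replicate 1 and 0.05 with the length and GC offsets.

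Of 13 listed genes of chromatin complexes 12 were members, of which 2 (ZNF532 and ZNF512B) were called lower by edgeR in the combination against DMSO and 1 (ZNF532) against WM1119, where 3.44% and 0.411% of all genes were called lower. The median log2 change against DMSO was -0.47, and it was -0.11 without combination replicate 2, -1.08 without combination replicate 1 and -0.10 with the length and GC offsets. ZNF217, a CoREST and CtBP partner amplified in tumors, had 101 and 39.9 CPM in the combination, against 95.8 and 99.1 CPM in DMSO. ZNF318, known in mouse for the long transcripts of immunoglobulin D, had 72.9 and 30.7 CPM in the combination, against 78.0 and 73.6 CPM in DMSO, and ZNF592, a partner of ZNF532, had 76.9 and 51.0 CPM, against 81.3 and 69.0 CPM in DMSO. None of these 3 had both combination libraries above or below DMSO by more than the gap between the combination libraries.

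In the fit of all 8 libraries without offsets, edgeR called none of 12 sequence-specific activators in any of the 6 comparisons. In the combination against DMSO it called 5.85% of all genes higher and 3.44% lower. The median log2 change of the 12 activators in the combination against DMSO was -0.45. It was -0.25 without combination replicate 2, -0.62 without combination replicate 1 and -0.24 with the length and GC offsets. ZNF24 had 101 and 59.5 CPM in the combination, against 137 and 129 CPM in DMSO (log2 -0.64, SE 0.20, edgeR adjusted p 0.0966). ZNF131, a BTB domain factor, had 81.8 and 52.1 CPM in the combination, against 93.1 and 91.3 CPM in DMSO. ZNF384, the partner of several gene fusions in B cell leukemia, had 59.4 and 46.4 CPM in the combination, against 73.9 and 69.5 CPM in DMSO. In all 3 genes both combination libraries lay below both DMSO libraries. Against DMSO, DESeq2 called ZNF24 (DESeq2 adjusted p 0.0423). With the offsets edgeR called ZNF384 (log2 -0.33, edgeR adjusted p 0.0471) and not ZNF24 (log2 -0.21, edgeR adjusted p 0.162).

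Among KRAB genes known for transposable elements, imprinting or repression of lipid genes, 5 of the 12 listed were members. Of these, 0 were called by edgeR in any of the 6 comparisons, where 5.85% of all genes were called higher and 3.44% lower in the combination against DMSO. ZNF445, a regulator of imprinted genes with the longest transcript of the set (18314 bases), had 28.03 and 14.3 CPM in the combination, against 32.8 and 29.7 CPM in DMSO. ZNF765, which binds LINE-1 elements, had 25.3 and 14.5 CPM in the combination, against 24.4 and 28.3 CPM in DMSO, and ZNF202, a repressor of lipid metabolism genes, had 16.9 and 12.3 CPM, against 21.0 and 17.2 CPM in DMSO. ZNF91, the repressor of SVA elements, is listed at 0 in all 8 libraries. The median log2 change of the 5 members in the combination against DMSO was -0.31, beside -0.29 over the 183 genes, and it was -0.14 without combination replicate 2, -0.64 without combination replicate 1 and -0.02 with the length and GC offsets.

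The corepressors that KRAB proteins call on were read from a separate list, none of whose 26 tested genes is a ZNF-numbered gene of the set. By edgeR, 1 was called lower and 0 higher in the combination against DMSO, and 0 in the other 5 comparisons, where 3.44% of all genes were called lower and 5.85% higher in the combination against DMSO. Its median log2 change was -0.30 in the combination against DMSO, -0.18 against VTP50469 and -0.24 against WM1119. Against DMSO it was -0.16 without combination replicate 2, -0.60 without combination replicate 1 and -0.12 with the length and GC offsets. The gene called was MORC2, an ATPase that works with the HUSH silencing complex, with 24.9 and 19.5 CPM in the combination, 28.8 and 30.5 CPM with VTP50469 and 30.6 and 37.0 CPM with WM1119, against 37.0 and 35.8 CPM in DMSO (log2 -0.61, SE 0.14, edgeR adjusted p 0.0468). The MORC2 call was lost without any 1 library of VTP50469, WM1119 or DMSO (highest edgeR adjusted p 0.292) and held without either combination library. It was also lost with the length and GC offsets (log2 -0.33, edgeR adjusted p 0.127). CHD4, the remodeling ATPase of NuRD, had 325 and 224 CPM in the combination, against 416 and 417 CPM in DMSO (log2 -0.50, edgeR adjusted p 0.0786, and log2 -0.15 with the offsets). UHRF1, which maintains DNA methylation, had 329 and 218 CPM in the combination, against 413 and 413 CPM in DMSO, and the histone methyltransferase EHMT1 had 68.9 and 46.4 CPM, against 86.4 and 85.1 CPM in DMSO. With the offsets edgeR called UHRF1 (log2 -0.47, edgeR adjusted p 0.0156) and EHMT1 (log2 -0.33, edgeR adjusted p 0.0338) against DMSO. In the fit of all 8 libraries without offsets it called neither. Without combination replicate 1 the log2 changes were -0.67 for CHD4, -0.71 for UHRF1 and -0.67 for EHMT1. Without combination replicate 2 they were -0.34, -0.31 and -0.30 in that order. DESeq2 without offsets called MORC2, CHD4 and UHRF1 (DESeq2 adjusted p 0.00858, 0.0264 and 0.0445) and not EHMT1 (0.0770). In these 4 genes both combination libraries lay below all 6 others.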

How the data were processed

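RNA-seq of MOLM-13 cells gave 8 libraries, 2 in each of 4 groups. The authors deposited 1 table of expected counts for 26475 gene symbols, in which 11.4% to 16.6% of the values of a library were not whole numbers, and these were rounded here. The submitters' processing notes name STAR 2.5.1b and hg38, while for the annotation, the counting tool and its handling of strand the record is: not given in the sources used here. Labels and methods of the study name different kits and culture media, so the ones used are not stated here.

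The members and all gene lists were chosen with earlier results of these data known. CPM was taken by library total. Calls came from edgeR 4.0.16 in R 4.3.3 (quasi-likelihood F test, TMM, all 8 libraries and 4 groups in 1 fit, 12401 genes left by filterByExpr, Benjamini-Hochberg adjusted p under 0.05), and the script was tested on simulated data. Differences per library used log2(CPM + 1). Transcript lengths and GC content came from GENCODE 44, and KRAB boxes from a profile built on 251 seed windows (E value up to 0.001).

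Named were the 6 highest members in DMSO, 3 on each side of the threshold, those called, the 4 highest and 4 lowest without overlap in each combination comparison, the 3 with the widest gap between combination libraries, up to 3 of each role list by DMSO level, and the 4 corepressors with the lowest p. ZNF552 and ZNF587B were added after their values were seen, for their sequences. The lists were ribosome and translation, RNA processing and mitosis, chromatin complexes, sequence-specific activators, transposon and imprinting KRAB genes, KRAB corepressors, and markers of myeloid, lymphoid, erythroid and megakaryocyte, and epithelial, stromal and kidney cells.

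Alternatives were DESeq2 1.42.0, other scalings and count filters, a replicate block, fits of only the groups compared, loess offsets (span 0.4) for transcript length and GC content, each library left out, other pseudocounts and other membership thresholds.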

Additional observations from a re-analysis of the deposited data

How the results depend on the processing

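The number of the 183 genes called by edgeR depended on the setting. For the combination against DMSO, 7 were called, against 21 by DESeq2, 33 with the length and GC offsets, 4 with library totals only, 0 with only the groups compared in the fit, and 0 to 122 when 1 library was left out. Against VTP50469, 0 were called, against 6 by DESeq2, 1 with no count filter, 10 with the offsets and 0 to 117 when 1 library was left out. Against WM1119, 1 was called, against 5 by DESeq2, 10 with the offsets, 0 with library totals only, 0 with only the groups compared, 0 with members at 20 CPM in DMSO or at 10 CPM over all 8 libraries, and 0 to 114 when 1 library was left out. VTP50469 against DMSO had 0, against 14 with only the groups compared, 1 with the offsets and 0 to 2 when 1 library was left out, and the interaction had 0 to 70 when 1 library was left out. The cause of these differences was not tested. Shares of all tested genes are given above for DESeq2 and for the fits without a combination library. No such share is given for the offsets, library totals, count filters or fits of only the groups compared. Counts under those settings are therefore not read as a trait of the 183 genes. A lone library left in a group was assumed to vary like the other groups. With library totals only, the median over all genes shifted by -0.11 in the combination against DMSO.

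Same-numbered libraries had correlations of deviations between -0.44 and 0.17. The trend with transcript length also differed between replicates, so these values cannot decide if the numbers pair the libraries. A replicate block gave 4 calls in the combination against DMSO and 0 against WM1119, with no share of all tested genes given beside them.

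Against DMSO, 9 named genes changed sign under an alternative. With the offsets the log2 change was 0.084 for ZNF106, 0.46 for ZNF207, 0.16 for ZNF445, 0.30 for ZNF592, -0.43 for ZNF593 and 0.021 for ZNF638. With 1 library left out, it ran from -1.20 (without combination replicate 1) to 0.16 (without combination replicate 2) for ZNF106, and in the same way from -1.07 to 0.063 for ZNF217, from -0.34 to 0.048 for ZNF592 and from -2.10 to 0.0036 for ZNF791. For ZNF593 and ZNF706 it ran the other way, from -0.47 and -0.35 without combination replicate 2 to 0.94 and 0.14 without combination replicate 1. The medians by library and the correlations with length moved by less than the replicate spread under every alternative run on them.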

Other observations

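Of the ZNF-numbered genes under the threshold of 10 CPM, 175 were tested. Of these, edgeR called 1 lower and 0 higher in the combination against DMSO, where 3.44% of all tested genes were called lower and 5.85% higher, and the median log2 change was -0.07. The gene was ZNF695, a KRAB zinc finger gene, with 0.694 and 0.703 CPM in the combination, 1.16 and 1.14 CPM with VTP50469 and 1.59 and 2.09 CPM with WM1119, against 2.98 and 2.28 CPM in DMSO (log2 -1.79, SE 0.36, edgeR adjusted p 0.0293). The combination libraries lay below all others. In these 2 libraries 10 CPM stood for 230 and 185 counts, so the ZNF695 levels there rest on few counts. No fit with 1 library left out is given for ZNF695. DESeq2 also called ZNF695 (DESeq2 adjusted p 0.00556). It further called ZNF467, ZNF165 and ZNF688 higher and ZNF117, ZNF485 and ZNF675 lower, where it called 17.1% of all genes. ZNF226, ZNF230, ZNF557 and ZNF703, under 10 CPM on average in DMSO, had at least 10 CPM in both combination libraries.

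Both combination libraries lay below both single-inhibitor groups, and these below DMSO, for 8 of the 183 genes (4.37%), where 6.26% of all tested genes did so. The opposite order was found for 2 genes, ZNF385A and ZNF428 (1.09%), where 5.96% of all tested genes had it.

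The 7 members on chromosome 18 were singled out after their values were seen. Their median difference of log2(CPM + 1) from DMSO was -0.39 in combination replicate 1 and -1.66 in combination replicate 2, beside -0.13 and -0.65 over the 183 genes. Their median transcript length was 6556 bases, beside 4144 bases over the 183 genes. They include ZNF532, ZNF521, ZNF516 and ZNF24, whose values are given above, and ZNF407, with 17.9 and 10.6 CPM in the combination against 23.8 and 22.7 CPM in DMSO. The part of transcript length in these values was not tested.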
